A study of Mus musculus with 4 samples.

Results

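The constitutive proteasome subunit genes were examined in LSK cells of the mouse fetal liver, sorted as a stem and progenitor fraction that lacks lineage markers and carries Sca-1 and c-Kit. The members were the genes of the deposited table named *Psma*, *Psmb*, *Psmc* or *Psmd* with a number, without the immunoproteasome and thymoproteasome subunits *Psmb8*, *Psmb9*, *Psmb10* and *Psmb11*. This naming rule used no expression value and gave 35 of the 39186 genes in the table. RNA sequencing covered 2 *Pich*-KO and 2 *Pich*-WT samples, all of the C57BL/6 strain. The knockout is a constitutive TALEN-made deletion in the second exon of *Pich* (*Ercc6l*), an X-linked gene for a DNA translocase of mitosis, so every cell of the embryo carries it. The wild-type samples carry no engineered allele according to the labels, no agent was given to either group, and the labels state neither embryo age nor whether a sample pooled embryos. No label states that the samples came from separate embryos. The sex-linked reads given below show that the *Pich*-WT samples were not from the same material. Whether the *Pich*-KO samples were is not known. The p-values measure only the spread between these samples, which in *Pich*-KO may be technical.

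The proteasome degrades proteins that carry ubiquitin chains. Its barrel-shaped core particle stacks outer alpha rings on inner beta rings, and 3 kinds of beta subunit hold the proteolytic sites. A regulatory particle caps the core: its base contains 6 ATPases that unfold substrates and its lid removes ubiquitin. Every cell needs this machine, and hematopoietic cells can replace the constitutive catalytic subunits by immunoproteasome subunits. Blood stem cells are known to depend on controlled protein turnover.

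Values are normalized counts, the reads on a gene divided by a size factor for its sample. The samples held 14703215 to 20933919 reads on genes. *Ercc6l* itself had 1142 and 1232 normalized counts in the *Pich*-KO samples against 772 and 661 in the *Pich*-WT samples; a gene-wide count includes transcripts with the small deletion, so it does not check the genotype. *Pich*-WT sample 2 had 0 reads on 4 Y-linked genes and 699 on *Xist*, whereas the other 3 samples had 1607 to 2848 and 4 to 13, so the samples differ in these sex-linked reads within the *Pich*-WT group. Markers of other cells also differed between the groups. Higher and lower here mean an adjusted p under 0.05 by limma, as described below. Over all genes tested 7.58% were higher and 9.6% lower, and 31.3% and 18.8% where the mean reached 1000 normalized counts. All 14 macrophage markers were lower in *Pich*-KO, and their summed level was 8059 to 9214 normalized counts against 62887 to 65088. No macrophage marker was at 0 in all samples, and *Csf1r*, *C1qb* and *C1qc* had the highest means over the samples. Of 11 erythroid markers 9 were lower (summed level 34453 to 36714 against 140485 to 199242), and of 9 hepatocyte markers 6 were lower (2777 to 3151 against 4547 to 5066). The granule genes *Mpo* and *Prtn3* were the 2 higher genes of 8 neutrophil markers, whose sum was 63333 to 116864 against 15692 to 18231. Most of that sum was *Mpo*, with 54647 and 90492 against 10351 and 12533. The groups of the other 6 overlapped, and none of these passed the threshold. Among 6 lymphoid markers only *Cd4* was lower, with the sums of the list at 654 to 1150 against 1193 to 1231. The shares of lower lymphoid genes and of higher neutrophil genes lay between those given above for all genes tested and at a mean of 1000. Of 10 stem and progenitor markers, *Ly6a*, which encodes Sca-1, was higher, and *Slamf1*, *Mecom*, *Hlf* and *Myct1* were lower. *Kit*, which defines the sort together with Sca-1, was counted in all 4 samples. In bulk samples, fewer cells of a type and less RNA per cell cannot be told apart, and the part of these cell markers in the results that follow was not tested.

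Upstream sequences of 6 members are shown because these members span the alpha ring, the beta ring, the base ATPases and the base scaffold, and because together they show the motif letters that were searched in the promoters. They come from RefSeq on GRCm38.p6, run 5′ to 3′ on the strand of the gene, and end at the last base before the gene as deposited. The capitals mark matches, on either strand, to CCGGAAG, an ETS-family core, TGACNNNGC, an antioxidant response element core, an interferon-stimulated response element core (GAAA, 2 bases of any kind, GAAA), and CCAAT, the NF-Y core. CACGTG, the E-box, and TTCNNNGAA, a STAT-type palindrome, were searched as well and have no match in these 6.
*Psma5* (chr3:108256676-108256925, + strand): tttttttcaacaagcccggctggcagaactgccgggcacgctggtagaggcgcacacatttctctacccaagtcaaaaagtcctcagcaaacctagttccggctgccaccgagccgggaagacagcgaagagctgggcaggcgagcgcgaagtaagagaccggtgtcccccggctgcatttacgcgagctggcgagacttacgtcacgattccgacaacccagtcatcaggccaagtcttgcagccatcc
*Psmb3* (chr11:97703184-97703398, + strand): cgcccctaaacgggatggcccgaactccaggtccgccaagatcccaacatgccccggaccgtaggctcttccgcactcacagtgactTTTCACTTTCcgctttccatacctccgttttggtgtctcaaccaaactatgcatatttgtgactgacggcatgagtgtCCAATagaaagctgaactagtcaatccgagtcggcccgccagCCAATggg
*Psmb5* (chr14:54618023-54618245, - strand): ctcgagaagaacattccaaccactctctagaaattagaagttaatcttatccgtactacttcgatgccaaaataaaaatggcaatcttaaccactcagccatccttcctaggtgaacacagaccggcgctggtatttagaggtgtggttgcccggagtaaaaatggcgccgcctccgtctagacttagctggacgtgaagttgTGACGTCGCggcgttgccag
*Psmc6* (chr14:45329574-45329787, + strand): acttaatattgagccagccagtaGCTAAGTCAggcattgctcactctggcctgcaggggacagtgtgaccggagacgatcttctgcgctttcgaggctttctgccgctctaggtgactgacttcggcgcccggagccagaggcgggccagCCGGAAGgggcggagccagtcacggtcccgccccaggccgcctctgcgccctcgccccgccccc
*Psmd2* (chr16:20651402-20651651, + strand): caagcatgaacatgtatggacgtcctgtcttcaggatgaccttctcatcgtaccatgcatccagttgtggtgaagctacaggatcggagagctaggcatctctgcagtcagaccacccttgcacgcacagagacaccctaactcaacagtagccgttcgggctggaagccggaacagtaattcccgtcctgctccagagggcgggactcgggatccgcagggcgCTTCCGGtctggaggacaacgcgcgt
*Psmd4* (chr3:95042615-95042864, - strand): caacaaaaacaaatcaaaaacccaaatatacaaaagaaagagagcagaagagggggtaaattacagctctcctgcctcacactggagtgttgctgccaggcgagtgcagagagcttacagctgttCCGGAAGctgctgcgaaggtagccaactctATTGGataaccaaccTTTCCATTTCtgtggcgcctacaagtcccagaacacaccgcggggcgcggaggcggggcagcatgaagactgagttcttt
The *Psmb3* and *Psma5* windows belong to the members with the largest rises, and the *Psma5* window has no match to any of the 6 motifs. The *Psmb3*, *Psmc6* and *Psmd4* windows hold more than 1 kind of motif. Across 30 promoters of 28 members in the RefSeq table (250 bases before each start), CCGGAAG was present in 10, or 33.3%, compared with 6.91% of all 32851 promoters and 16.7% of the 4232 promoters of genes with a mean of at least 1000 normalized counts. The 9 genes with these promoters were *Psma6*, *Psmc1*, *Psmc2*, *Psmc6*, *Psmd2*, *Psmd4*, *Psmd6*, *Psmd11* and *Psmd12*. The only core particle gene among them was *Psma6*, whose match lies in a window of an internal start. That window begins at 55398575, inside the gene as deposited (from 55384222). The *Psmd9* window with the matches given below also lies inside its gene (123227940, gene from 123169413). So does a further *Psmc2* window with CCGGAAG (21786497, gene from 21785283). As the upstream window of *Psmc2* has this motif too, *Psmc2* was counted more than once among the 10 promoters. TGACNNNGC was present in 5 promoters (*Psmb5*, *Psmb6*, *Psmc6*, *Psmd9* and *Psmd12*), or 16.7% against 10.2% of all promoters. The interferon-stimulated response element core was present in 3 (*Psmb3*, *Psmd4* and *Psmd9*), or 10% against 2.98%. CCAAT was found in 36.7% of the member promoters and in 33.8% of all, and CACGTG in 6.67% and 6.02%. TTCNNNGAA was found in 0 of the 30 member promoters and in 7.02% of all promoters. Among promoters of genes with a mean of at least 1000, TGACNNNGC was in 12.3% and the interferon-stimulated core in 3.02%. In the same promoters CCAAT was in 35.6%, CACGTG in 9.52% (above the member share) and TTCNNNGAA in 5.91%. These matches describe letters in a window and are not binding sites.

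Most constitutive proteasome genes were higher in *Pich*-KO LSK cells, in both rings of the core and in the base and lid. No base assembly chaperone among the members passed the test. Of the 35 members, 25 rose, 0 fell and 10 did not pass the threshold of an adjusted p under 0.05 (limma on log2(value + 1), Benjamini-Hochberg adjustment over 32428 genes). Over all genes tested 7.58% were higher and 9.6% were lower. Nearly all members are highly expressed, and among the 4115 genes whose mean reached 1000, a limit chosen after the data had been seen, 31.3% were higher and 18.8% were lower. Of the 32 members above that limit, 25 rose and 0 fell. Fold changes were moderate: the median of the members was 0.41 on the log2 scale, a 1.32-fold level, with a middle range of 0.28 to 0.51. The median over all genes tested was 0.02, with a middle range of -0.64 to 0.59, and the median of genes with a mean of at least 1000 was 0.14, with a middle range of -0.25 to 0.48.

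In 33 of the 35 members both *Pich*-KO samples lay above both *Pich*-WT samples, a pattern seen in 28.9% of all genes tested and in 50.6% of genes whose mean reached 1000. *Psma8* had the opposite order, which 27.2% of all genes show, and *Psmd10* was the member whose groups overlapped. The counts of all members summed to 167630 and 174684 normalized counts in the *Pich*-KO samples and to 133413 and 124088 in the *Pich*-WT samples. Per library this was 1.01% and 1.05% of the reads on genes in *Pich*-KO (Wilson 95% intervals 1.01 to 1.02 and 1.04 to 1.05) against 0.815% and 0.797% in *Pich*-WT (0.812 to 0.819 and 0.793 to 0.802). Intervals cover counting error only. The wild-type pair lay close together, although *Pich*-WT sample 1 was above *Pich*-WT sample 2 in 33 of the 35 members, with a median difference of 0.11 on the log2 scale. The same difference over genes with a mean of at least 1000 was 0.07. Between the *Pich*-KO samples the second was above the first in 26 members, with a median difference of -0.07 for the first minus the second. The median rise of 0.41 was thus larger than either difference between replicates.

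**Figure D1:**
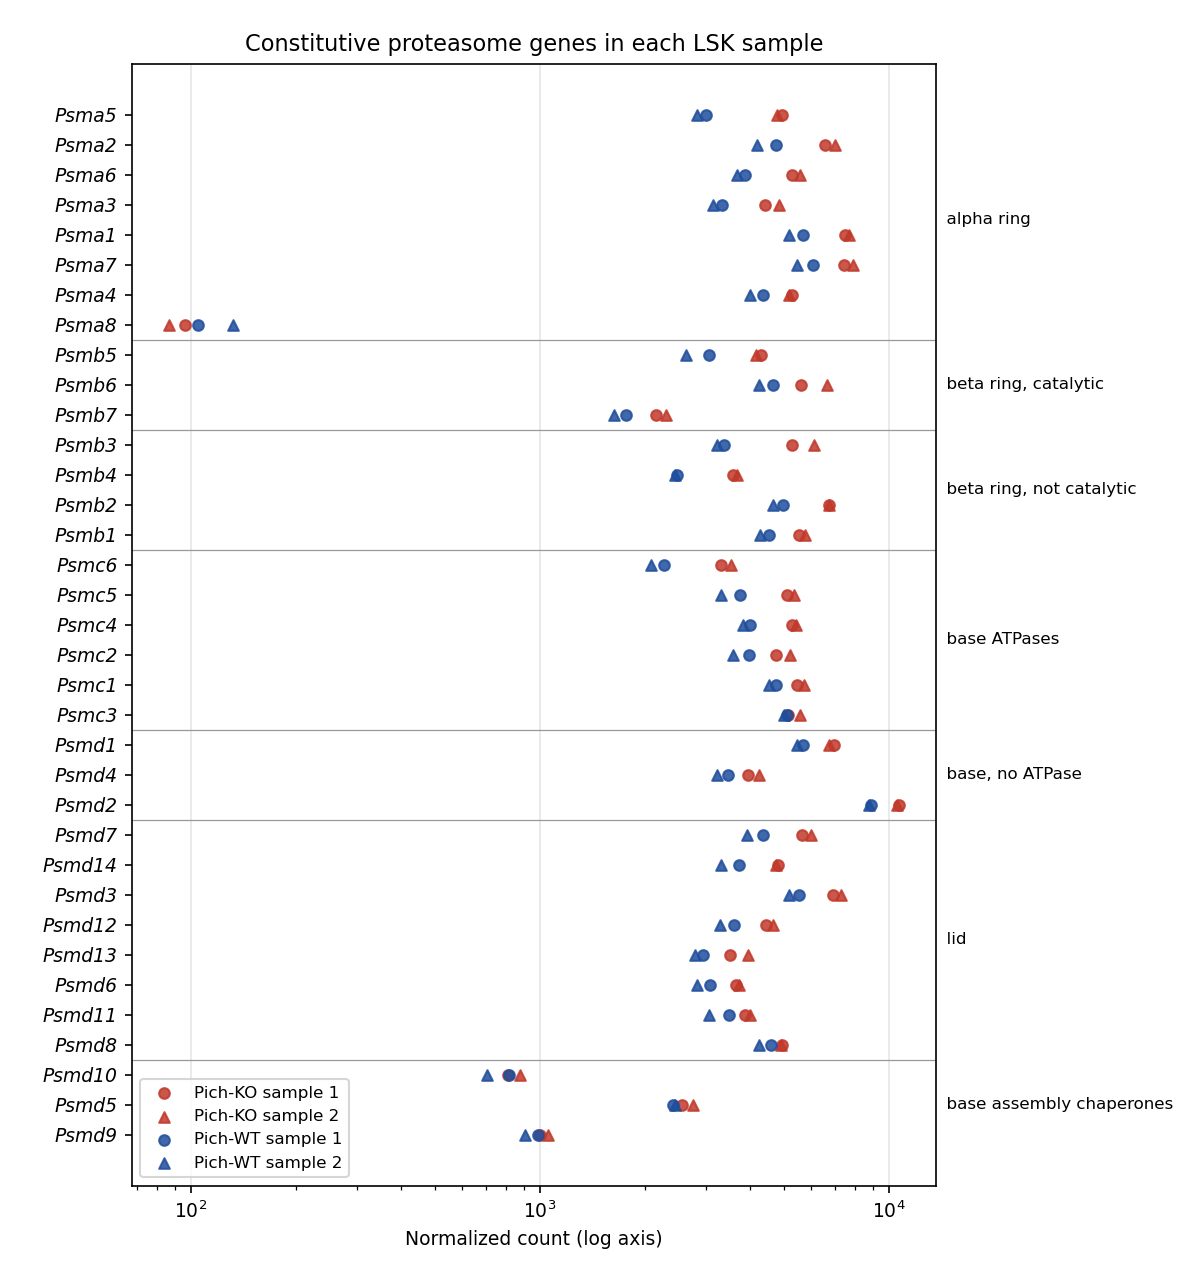
Normalized counts (log axis) of the 35 constitutive proteasome genes in each of the 2 *Pich*-KO (red) and 2 *Pich*-WT (blue) samples, ordered by role; each point is 1 sample. Red points lie to the right of blue points in 33 genes, the groups of *Psmd10* overlap, and *Psma8* lies far below the other members with the groups in the opposite order.

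The call depends on both samples of each group being present. With the second *Pich*-KO sample, the first *Pich*-WT sample or the second *Pich*-WT sample left out in turn, limma called 0 members, with 25, 24 and 18 members at an unadjusted p under 0.05, and without the first *Pich*-KO sample it called 1, *Psmb3*. In these fits 0 genes of the whole table were called higher except without the first *Pich*-KO sample, where 1.7% were, and the median of the members stayed between 0.34 and 0.47. edgeR on the recovered reads called 29 members higher, against 18.6% of the genes it tested, and DESeq2 called 22, against 17.6%.

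The alpha ring forms the gate through which substrates enter the core particle, and 7 of its 8 genes rose, with a median of 0.50 on the log2 scale. *Psma5* (ENSMUSG00000068749, chr3:108256926-108279974), which encodes alpha5, had 4946 and 4781 normalized counts in *Pich*-KO against 3003 and 2827 in *Pich*-WT. Its groups were far apart, with a 1.67-fold rise (log2 fold change 0.74, SE 0.09, adjusted p = 0.00115 by limma). *Psma2*, which encodes alpha2, had 6579 and 6997 against 4756 and 4183 normalized counts. The rise of *Psma2* was 0.60 on the log2 scale (adjusted p = 0.00367 by limma); its gene span overlaps the expressed gene *AW209491*, and reads of the 2 cannot be separated where strand is not recorded. *Psma6* (alpha1) and *Psma3* (alpha7) both rose by 0.52, *Psma1* (alpha6) by 0.49 and *Psma7* (alpha4) by 0.42. The smallest rise in the ring was that of *Psma4* (alpha3), with 5268 and 5162 against 4376 and 3999 normalized counts. Its log2 fold change of 0.32 lay near the threshold (adjusted p = 0.0462 by limma) and was not called by DESeq2 (adjusted p = 0.0769).

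*Psma8* encodes the germ-cell form of alpha4 that replaces the *Psma7* product in testis. It was the member with the lowest level, at 96.0 and 86.4 normalized counts in *Pich*-KO against 105 and 132 in *Pich*-WT. Both *Pich*-KO samples lay below both *Pich*-WT samples, but the difference of -0.37 on the log2 scale (SE 0.25) did not pass the test (adjusted p = 0.416 by limma). *Psma7*, its near relative, had 7457 and 7913 against 6075 and 5445 normalized counts, so reads shared between the paralogs would weigh mainly on *Psma8*.

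All 7 genes of the beta ring rose. The largest change among the members was that of *Psmb3* (ENSMUSG00000069744, chr11:97703399-97713500), which encodes beta3, a structural subunit without a proteolytic site. It had 5298 and 6125 normalized counts in *Pich*-KO against 3363 and 3215 in *Pich*-WT. The lower *Pich*-KO value exceeded the higher *Pich*-WT value by far, and the rise was 1.74-fold (log2 fold change 0.79, SE 0.10, adjusted p = 0.00134 by limma). *Psmb4* (beta7) had 3573 and 3675 against 2474 and 2435 normalized counts, a rise of 0.56. *Psmb2* (beta4) rose by 0.48 and *Psmb1* (beta6) by 0.36. The median of these 4 structural subunits was 0.52.

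The 3 catalytic subunits showed a median of 0.46. *Psmb5* encodes beta5, which carries the chymotrypsin-like activity targeted by bortezomib. Its normalized counts were 4314 and 4160 in *Pich*-KO against 3050 and 2621 in *Pich*-WT, a 1.49-fold rise (adjusted p = 0.00703 by limma). *Psmb6* encodes beta1, the caspase-like subunit, and had 5596 and 6673 against 4648 and 4242 normalized counts. Its *Pich*-KO samples were further apart from each other than those of the other 2 catalytic genes, yet above both *Pich*-WT samples (log2 fold change 0.46, SE 0.11, adjusted p = 0.0225 by limma). *Psmb7* encodes beta2, the trypsin-like subunit, with 2155 and 2302 against 1772 and 1636 normalized counts. Its rise of 0.39 was close to the threshold (adjusted p = 0.0463 by limma), and its span overlaps *Nek6*, which is expressed in these cells.

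**Figure D2:**
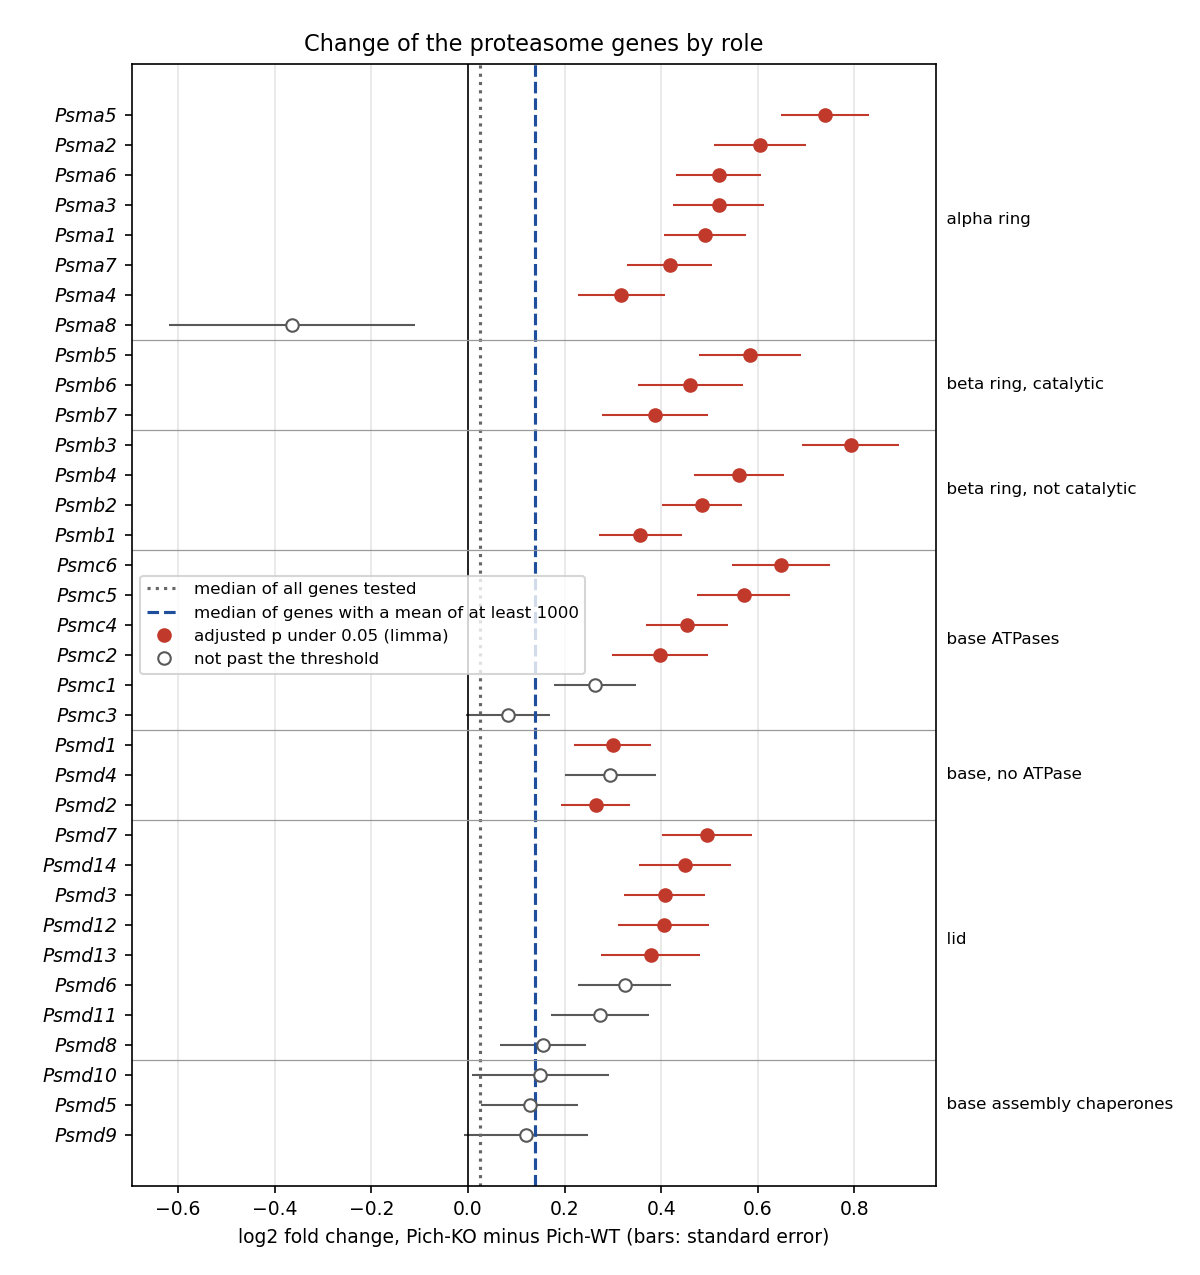
log2 fold change, *Pich*-KO minus *Pich*-WT, of the 35 members by role, with the standard error as bars; filled points passed an adjusted p of 0.05 by limma, open points did not. The 14 core particle genes other than *Psma8* are all filled and lie between 0.32 and 0.79, whereas the 3 assembly chaperones at the bottom are open and lie between 0.12 and 0.15; vertical lines mark 0 and the medians of all genes tested (0.02) and of genes with a mean of at least 1000 (0.14).

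The base of the regulatory particle holds the ATPase ring, of which 4 of 6 genes rose. *Psmc6*, which encodes Rpt4, had 3305 and 3523 normalized counts in *Pich*-KO against 2270 and 2086 in *Pich*-WT. The groups were well separated and the rise was 1.57-fold (log2 fold change 0.65, SE 0.10, adjusted p = 0.00364 by limma). *Psmc5* (Rpt6) had 5124 and 5342 against 3738 and 3316 normalized counts, a rise of 0.57. *Psmc4* (Rpt3) rose by 0.45 and *Psmc2* (Rpt1) by 0.40. *Psmc1* (Rpt2) had 5442 and 5726 against 4750 and 4551 normalized counts; its difference of 0.26 did not pass the test with limma (adjusted p = 0.0748) and passed with edgeR (adjusted p = 0.0365). *Psmc3* (Rpt5) was the ATPase with the smallest difference. It had 5147 and 5584 normalized counts in *Pich*-KO against 5120 and 5002 in *Pich*-WT, so that the first *Pich*-KO sample was barely above the first *Pich*-WT sample (log2 fold change 0.08, SE 0.09, adjusted p = 0.598 by limma). The span of *Psmc3* overlaps the expressed gene *Slc39a13*.

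Of the 3 base subunits without ATPase activity, 2 rose. *Psmd2* and *Psmd1* encode Rpn1 and Rpn2, the large scaffolds of the base. Rpn1 receives ubiquitin-like domains of shuttle proteins and of associated enzymes. *Psmd2* had 10731 and 10525 normalized counts in *Pich*-KO against 8901 and 8797 in *Pich*-WT. Each pair of replicates was nearly equal, and the rise was 0.26 on the log2 scale (SE 0.07, adjusted p = 0.0378 by limma). *Psmd1* rose by 0.30 (adjusted p = 0.0381 by limma); DESeq2 called neither scaffold gene (adjusted p = 0.125 for *Psmd2* and 0.0853 for *Psmd1*). *Psmd4*, which encodes the ubiquitin receptor Rpn10, had 3949 and 4247 against 3453 and 3227 normalized counts. Its groups did not overlap, but the difference of 0.29 missed the threshold with limma (adjusted p = 0.0747) and passed with edgeR (adjusted p = 0.0335).

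In the lid 5 of 8 genes rose, with a median of 0.39 on the log2 scale. *Psmd14* encodes Rpn11, the metalloprotease that cleaves the ubiquitin chain from the substrate. Its normalized counts were 4826 and 4752 in *Pich*-KO against 3718 and 3307 in *Pich*-WT, a 1.36-fold rise (log2 fold change 0.45, adjusted p = 0.0145 by limma). *Psmd7* encodes Rpn8, the partner of Rpn11, and had 5656 and 5983 against 4355 and 3913 normalized counts. It had the largest rise in the lid, 0.49. The scaffold genes *Psmd3* (Rpn3) and *Psmd12* (Rpn5) both rose by 0.41, and *Psmd13* (Rpn9) rose by 0.38. Part of the reads in the *Psmd13* span may belong to *Sirt3*, which overlaps it. *Psmd6* (Rpn7), *Psmd11* (Rpn6) and *Psmd8* (Rpn12) had differences of 0.32, 0.27 and 0.16, with adjusted p = 0.0546, 0.115 and 0.303 by limma. In all 3 both *Pich*-KO samples lay above both *Pich*-WT samples. That order was seen in 28.9% of all genes tested and in 50.6% of genes whose mean reached 1000. *Psmd6* and *Psmd11* passed with edgeR (adjusted p = 0.0227 and 0.0497), *Psmd8* did not (adjusted p = 0.144), and DESeq2 called none of the 3.

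*Psmd5*, *Psmd9* and *Psmd10* encode the chaperones S5b, p27 and gankyrin, which guide assembly of the base and leave the finished particle. None of the 3 passed limma, edgeR or DESeq2. *Psmd5* had 2548 and 2750 normalized counts in *Pich*-KO against 2410 and 2435 in *Pich*-WT, a difference of 0.13 (SE 0.10, adjusted p = 0.475 by limma). *Psmd9* had 1002 and 1056 against 990 and 905, a difference of 0.12 (SE 0.13, adjusted p = 0.607 by limma). For both, the lower *Pich*-KO sample was close to the higher *Pich*-WT sample. *Psmd10*, the only X-linked member, had 814 and 875 against 818 and 707, with overlapping groups and a difference of 0.15 (SE 0.14, adjusted p = 0.559 by limma). Its lowest value was in *Pich*-WT sample 2, the sample with reads on *Xist* and none on the Y-linked genes. That sample was below *Pich*-WT sample 1 in 33 of the 35 members, with a median difference of 0.11 on the log2 scale. Whether sex bears on the value of *Psmd10* was not tested.

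By particle, 14 of the 14 core genes other than *Psma8* rose, with a median of 0.50 and summed counts of 74656 and 78365 against 55891 and 51523, a 1.42-fold level. Of the 17 genes of the regulatory particle 11 rose, with a median of 0.38 and summed counts of 88514 and 91552 against 73199 and 68386, a 1.27-fold level. The difference between the particles was not tested.

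Subunits of 1 complex are present in fixed numbers in the protein, but their mRNA counts per coding length differed widely. Per kb of coding sequence, *Psmb2* had the highest level in *Pich*-WT, 7990 ± 382 normalized counts (SD, n = 2), and *Psma7* followed with 7742 ± 598. These 2 did not differ beyond their spread. Core particle genes filled the next 7 places, from *Psma1* at 6862 to *Psma6* at 5113 normalized counts per kb. The median of the 35 members was 3366 in *Pich*-WT and 4296 in *Pich*-KO. On this scale the lowest core genes other than *Psma8* were *Psmb7*, at 2050 ± 115 (SD, n = 2), and *Psmb4*, at 3099 ± 35.0. The scale counts reads on untranslated regions but divides by coding length alone, so genes with long untranslated regions stand higher. The principal transcript has 2911 bases in *Psma2* (702 coding) and 2846 in *Psma3* (765 coding). The order per transcript length was not examined and may differ. Near the bottom lay the assembly chaperones *Psmd5* at 1602, *Psmd9* at 1423 and *Psmd10* at 1100 normalized counts per kb, and *Psma8* was last at 158. Neighbours in this order overlapped between samples in 23 of 34 pairs in *Pich*-WT and in 18 of 34 pairs in *Pich*-KO, so many single steps of the order are within the spread. *Psmb3* stood at place 7 in *Pich*-WT and at place 5 in *Pich*-KO, *Psma5* at places 13 and 9, and *Psmc3* at places 14 and 21.

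**Figure D3:**
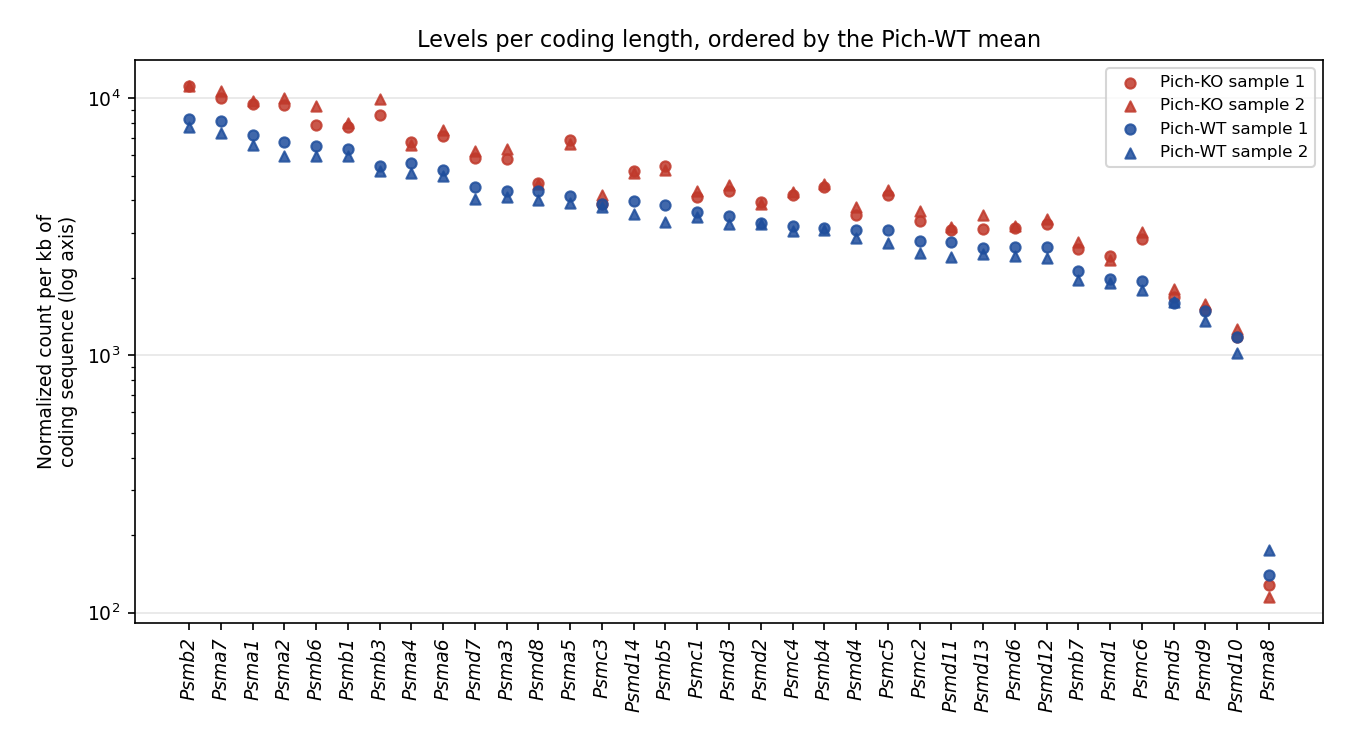
Normalized count per kb of coding sequence (log axis) of the 35 members in each of the 4 samples, ordered by the *Pich*-WT mean; each point is 1 sample, red for *Pich*-KO and blue for *Pich*-WT. The *Pich*-WT means fall from 7990 for *Psmb2* to 1100 for *Psmd10* among 34 members, and *Psma8* lies apart at 158.

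Across the members, the log2 fold change had a Pearson correlation of 0.607 with the log2 mean level (35 genes), which fell to 0.263 without *Psma8*. With the log2 coding length the correlation was -0.384 (34 genes, without *Psma8*). The points share the same 4 libraries, and these values are descriptions over genes that are not replicates. Named pseudogenes of members added little: 4 were in the table, and their highest value was 4.69 normalized counts.

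Of 37 other genes of the ubiquitin-proteasome pathway, 16 rose and 3 fell, with a median of 0.26, where 7.58% of all genes tested were higher and 9.6% lower (31.3% and 18.8% where the mean reached 1000). The catalytic subunits of the immunoproteasome, which replace the constitutive ones in blood cells and after interferon exposure, all rose. *Psmb8* (beta5i) had 5019 and 4940 normalized counts in *Pich*-KO against 3203 and 2600 in *Pich*-WT, a rise of 0.79 (adjusted p = 0.00265 by limma). *Psmb9* (beta1i) had 2463 and 2094 against 1358 and 1471, a rise of 0.68. *Psmb10* (beta2i) had 2890 and 2870 against 1976 and 1903, a rise of 0.57. *Psmb11*, the subunit of thymic epithelium, had at most 7.63 normalized counts in a sample.

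The balance between immunoproteasome and constitutive subunit was expressed as the log2 ratio of their normalized counts. *Psmb8* to *Psmb5* gave 0.22 and 0.25 in *Pich*-KO against 0.07 and -0.01 in *Pich*-WT, a difference of 0.20. *Psmb10* to *Psmb7* gave 0.42 and 0.32 against 0.16 and 0.22, a difference of 0.18. For both pairs the *Pich*-KO samples lay above the *Pich*-WT samples, with an exact permutation p = 0.333, two-sided, which is the smallest p that 2 against 2 samples allow (0.5 after adjustment over 3 pairs). *Psmb9* to *Psmb6* gave -1.18 and -1.67 against -1.77 and -1.53, with overlapping groups, a difference of 0.22 and an exact permutation p = 0.667. Without the first *Pich*-KO sample that difference was -0.02. As this test could not pass the threshold with 2 against 2 samples, it does not show whether the balance differed.

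**Figure D4:**
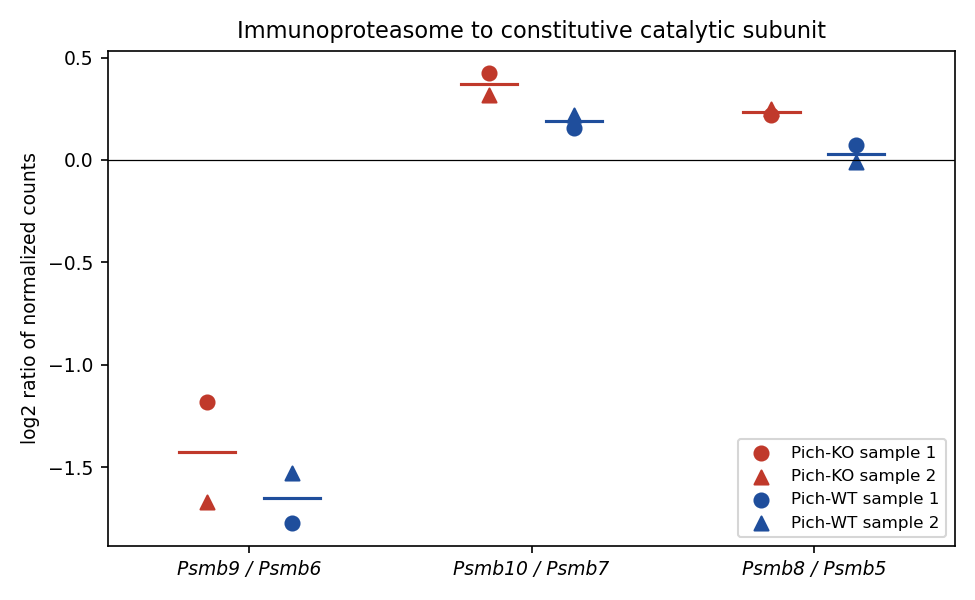
log2 ratio of normalized counts of each immunoproteasome catalytic subunit to the constitutive subunit it replaces, in each of the 2 *Pich*-KO (red) and 2 *Pich*-WT (blue) samples; each point is 1 sample and the short lines are group means. The groups are separate for *Psmb10* to *Psmb7* and *Psmb8* to *Psmb5*, with differences of 0.18 and 0.20, and overlap for *Psmb9* to *Psmb6*.

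The activator subunits *Psme1* and *Psme2*, which form an alternative cap on the core, rose by 0.51 and 0.55, and their relative *Psme2b* by 0.47; as *Psme2b* is a near copy of *Psme2*, its reads are uncertain. *Psme3*, *Psme4* and the inhibitor gene *Psmf1* had differences of 0.24, 0.33 and 0.03 that did not pass with limma. *Psme3* passed with edgeR (adjusted p = 0.0437). Of the assembly factors of the core, *Psmg1*, *Psmg2* and *Psmg3* rose by 0.82, 0.61 and 0.94. *Psmg3* had 699 and 791 normalized counts against 432 and 347. *Psmg4* had a difference of 0.38 and *Pomp*, the maturation factor of the beta ring, a difference of 0.09, neither past the threshold. Of these core assembly factors 3 of 5 were higher, and of the base chaperones 0 of 3. Over all genes tested 7.58% were higher, and 31.3% of those with a mean of at least 1000. In a set of 3 a count of 0 is near these shares, and the difference between the sets was not tested.

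Of 8 genes for proteasome-associated proteins, 4 rose and 1 fell. Over all genes tested 7.58% were higher and 9.6% lower, and 31.3% and 18.8% where the mean reached 1000. *Ecpas* (Ecm29), an adaptor that binds core and cap, had 2274 and 2051 normalized counts in *Pich*-KO against 418 and 381 in *Pich*-WT, a 5.41-fold rise (log2 fold change 2.43, SE 0.13, adjusted p = 4.31e-05 by limma). The deubiquitinases *Uchl5* and *Usp14*, which bind the regulatory particle, rose by 0.69 and 0.62, and *Adrm1*, the ubiquitin receptor that holds *Uchl5*, rose by 0.38. *Akirin2*, which encodes a factor for nuclear import of proteasomes, fell by 2.09 on the log2 scale, with 350 and 200 against 1228 and 1038 normalized counts (adjusted p = 0.00113 by limma). *Sem1*, a small lid subunit outside the naming rule, had a difference of 0.13 that did not pass, and *Txnl1* one of 0.18. *Ube3c*, a ligase on the proteasome, had 408 and 396 against 959 and 539 normalized counts; it missed the threshold with limma (adjusted p = 0.0614) and passed with DESeq2 (adjusted p = 0.00259).

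Among the shuttle proteins that carry ubiquitylated substrates, *Ubqln4* had 2641 and 2541 normalized counts against 1810 and 1721, a rise of 0.55. *Ubqln2* fell by 0.95, with 562 and 515 against 1075 and 1002. *Rad23b* and *Ubqln1* had differences of 0.19 and 0.26, which did not pass the test. Of the ubiquitin genes, *Rps27a*, a ubiquitin and ribosomal protein fusion with many pseudogene copies, rose by 1.25, and *Uba6*, the second ubiquitin-activating enzyme, by 1.11. The ubiquitin gene *Ubb* and the main activating enzyme *Uba1* did not pass the threshold with limma.

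*Nfe2l1* encodes NRF1, the transcription factor known for driving proteasome genes when proteasome activity is low. It had 3160 and 3103 normalized counts in *Pich*-KO against 3034 and 2960 in *Pich*-WT, a difference of 0.06 (SE 0.09, adjusted p = 0.727 by limma). Of its processing enzymes, *Ddi2*, the protease that cleaves NRF1, had a difference of 0.21 and *Ngly1*, which removes its sugar chains, fell by 0.56 (adjusted p = 0.0291 by limma). *Vcp* (p97) had a difference of 0.05 and its cofactors *Ufd1* and *Nploc4* of -0.11 and -0.42, none past the threshold with limma. *Nploc4* passed as lower with edgeR (adjusted p = 0.0495) and DESeq2 (adjusted p = 0.0441). Over the 6 genes of this axis 0 rose and 1 fell by limma. Among genes whose mean reached 1000, 31.3% were higher and 18.8% lower, and over all genes tested 7.58% and 9.6%. The mRNA levels do not measure how much NRF1 protein was processed.

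**Figure D5:**
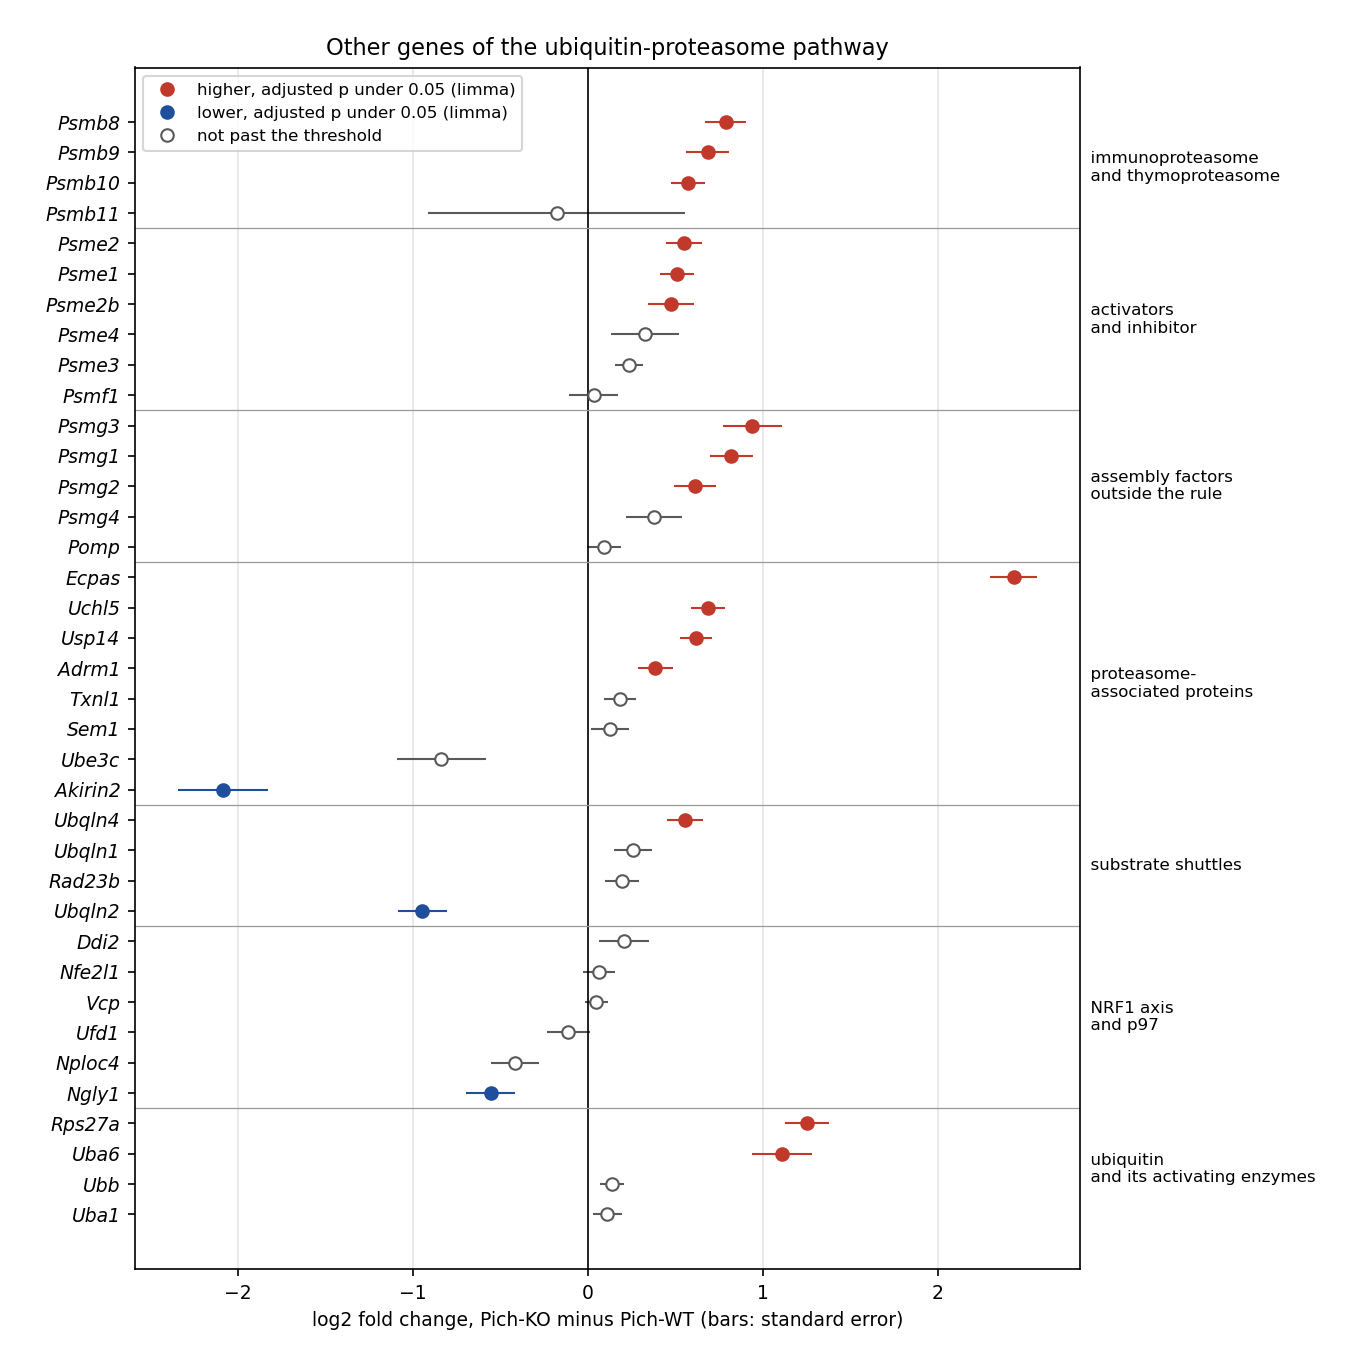
log2 fold change, *Pich*-KO minus *Pich*-WT, of 37 other pathway genes in 7 lists, with the standard error as bars; red points were higher and blue points lower at an adjusted p of 0.05 by limma, and open points did not pass. The 3 immunoproteasome subunits lie between 0.57 and 0.79, *Ecpas* is the highest at 2.43, *Akirin2* the lowest at -2.09, and the NRF1 axis runs from -0.56 for *Ngly1* to 0.21 for *Ddi2*.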

How the data were processed

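RNA-seq libraries of sorted LSK cells were taken as deposited. In that table, the authors made each signal value by dividing the reads on a gene by a size factor of its sample. The deposited table also holds the authors' own log2 fold changes and p-values, which were not used. Per the labels' processing notes, Bowtie 0.12.2 and the builds mm8 and mm9 were named, but 97.8% of 39163 genes found in GENCODE M21 have its GRCm38 start and end; the read counter is not given in the sources used here. The library kit is not stated to keep strand.

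Whole reads were recovered for 100% of values (tolerance 0.01 reads). limma 3.58.1, with a mean-variance trend, was fitted to log2(value + 1) for genes with a mean of at least 1, which understates changes of low genes. Alternatives were edgeR 4.0.16 and DESeq2 1.42.0 on recovered reads, other filters, a pseudocount of 0.1, no trend, a replicate block and leaving out each sample. Scripts were tested on simulated data. The members, gene lists, motifs and tests were chosen with earlier results of these data known. All members, and pathway genes past the threshold or of the immunoproteasome, could be named by rule; other pathway genes were named after their values were seen. *Paaf1* was not analysed here, and 3 further genes of the pathway lists are not reported here. Coding lengths are those of GENCODE M21, and promoters those of RefSeq.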

Additional observations from a re-analysis of the deposited data

How the results depend on the processing

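With 2 samples per group, the calls rest on the spread shared between genes of like level. With 1 prior variance for all genes, limma called 0 members higher (3 at an unadjusted p under 0.05), and 0 pathway genes higher and 0 lower. Leaving out 1 sample, where the lone sample is assumed to vary like the other group, gave 0 to 1 members higher, 0 to 1 pathway genes higher and 0 to 1 lower. The median of the members then lay between 0.34 and 0.47, and 34 of 35 members were positive in every setting. The *Psmb9* to *Psmb6* log2 ratio difference was -0.0208 without *Pich*-KO replicate 1.

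The members called higher were 22 with a pseudocount of 0.1, 18 without a filter, 28 with at least 10 reads in every sample, 29 with edgeR under TMM or upper-quartile scaling and 22 with DESeq2. All 25 members called by limma were also called with the 10-read filter and with edgeR, and 22 of them with DESeq2. The pathway genes called lower were 5, against 3, with at least 10 reads in every sample, with either edgeR scaling, with DESeq2 and with the replicate block. The replicate numbers did not pair the samples (correlation of replicate differences 0.0133 over 10544 genes whose mean reached 100); with the block, 26 members were called higher.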
